A study of Mus musculus with 2 samples.

Results

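The ligands and receptors of the epidermal growth factor (EGF) receptor family were followed in mouse liver cells with different amounts of Nras transcript after delivery of an NRAS transgene. The genes were a list of 8 of the 31053 gene rows measured, chosen by symbol: the ligand genes Areg, Ereg, Hbegf, Tgfa, Btc and Epgn and the receptor genes Egfr and Erbb3. They were described in hepatocytes, taken as barcodes in which Alb, Apoa1, Apoa2, Ttr and Fgb together made up at least 1% of the gene UMIs (unique molecular identifiers, each counting 1 captured transcript), by their content of Nras UMIs, and in other liver cells gated on marker genes.

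Livers of 3 female BL6 mice, injected at 6 to 8 weeks of age, were dissociated on day 6 after hydrodynamic tail-vein injection (HDTV), a fast injection of a large volume that brings plasmid DNA into some hepatocytes. Every mouse received the SB13 transposase with a transposon that joined mVenus, a yellow fluorescent protein, to NRAS behind the strong and ubiquitous CAGGS promoter. In 2 mice the transgene encoded oncogenic NRAS(G12V), and in 1 it encoded NRAS(G12V/D38A), in which a change in the effector domain makes the protein non-oncogenic. Cells of each mouse were stained with 1 hashtag antibody, sorted for mVenus and pooled for 3′ single-cell sequencing, so that the hashtag gives the mouse. The deposited key pairs hashtag 1 with the D38A mouse and hashtags 2 and 3 with the G12V mice, whereas the methods of the study pair hashtags 1 and 2 with G12V and hashtag 3 with D38A. The mice are therefore named by hashtag, and with 1 control mouse no comparison of the 2 constructs was tested. Nras UMIs came from the endogenous gene and from any transgene reads that aligned to it, which cannot be told apart, and no uninjected liver was measured.

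The ligands are made as membrane-bound precursors that metalloproteases such as ADAM17 release, and the released domain binds EGFR on the same or a neighbouring cell. Bound EGFR pairs with itself or another ERBB receptor and signals through the adaptors GRB2 and SOS to RAS and the ERK kinases, so RAS lies downstream of the receptor, and several of the ligand genes are in turn known targets of RAS and ERK signalling. ERBB3 binds neuregulins, has very little kinase activity of its own and passes on the signal of its partner. In liver, EGFR is an abundant receptor of hepatocytes, and its ligands are known for their part in regeneration after loss of tissue.

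The gene table held 142080194 UMIs in 13151 barcodes, of which 13141 were also in the hashtag table. The hepatocyte rule was met by 10682 barcodes, and 8510 of these passed the limits on gene number, UMIs and mitochondrial share. Most were shallow, with a median of 3724 UMIs, so the members were measured mainly in the 2306 hepatocytes of at least 10000 UMIs, called deep here. Of the deep hepatocytes, 1385 had a call for a single hashtag. By Nras UMIs per 1000000 gene UMIs they fell into 1723 baseline cells (under 300), 267 low cells (300 to 1000), 179 intermediate cells (1000 to 3000) and 137 high cells (at least 3000). The pooled mVenus level was 8.08 counts per 1000000 UMIs (CPM) at baseline, 79.7 in the low, 174 in the intermediate and 394 in the high cells, so that the reporter was higher in each next bin of Nras. An mVenus UMI was found in 17.6% of the baseline cells and in 99.3% of the high cells. The 10 hepatocyte markers that the rule did not use were all detected in each bin, with a summed level of 11576 CPM at baseline and 4234 CPM in the high cells.

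Epgn, Ereg, Areg and Btc are neighbours on chromosome 5, and the promoters of Areg and Btc are shown with that of Tgfa because these are 3 of the 5 ligand genes that were higher in cells with more Nras. In GRCm38, Epgn (chr5:91027464-91035215), Ereg (chr5:91074622-91093646) and Areg (chr5:91139599-91148432) lie on the plus strand and Btc (chr5:91357261-91402994) on the minus strand, within 375.5 kb. Tgfa lies on chromosome 6 (chr6:86195223-86275719, plus strand), Egfr on chromosome 11 (chr11:16752203-16918158, plus strand) and Erbb3 on chromosome 10 (chr10:128567523-128589652, minus strand). RefSeq promoter windows (GRCm38.p6, from 250 bases before to 50 after the start of the gene) matched 5 of the 8 members, and Ereg, Hbegf and Erbb3 are named only. Both strands were searched for the AP-1 site TGANTCA, the cyclic AMP response element (CRE) TGACGTCA, its core TGACG, which the full element also contains, the Sp1 site GGGCGG and the CArG box. Of 32851 promoter windows of this length, 7.81% held the AP-1 site, 1.79% the CRE, 20.8% the core, 35.7% the Sp1 site and 1.63% the CArG box. Capitals mark the matches in the windows of Areg (chr5:91139349-91139648, plus strand), Tgfa (chr6:86194972-86195271, plus strand) and Btc (chr5:91402945-91403244, minus strand), each covering the end of the upstream region and the start of the first exon:
Areg: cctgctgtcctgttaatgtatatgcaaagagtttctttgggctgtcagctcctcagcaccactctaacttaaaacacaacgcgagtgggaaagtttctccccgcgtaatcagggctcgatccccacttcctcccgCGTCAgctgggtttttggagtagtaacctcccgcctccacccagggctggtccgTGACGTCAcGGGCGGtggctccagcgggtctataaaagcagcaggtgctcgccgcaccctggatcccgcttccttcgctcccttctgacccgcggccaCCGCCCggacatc
Tgfa: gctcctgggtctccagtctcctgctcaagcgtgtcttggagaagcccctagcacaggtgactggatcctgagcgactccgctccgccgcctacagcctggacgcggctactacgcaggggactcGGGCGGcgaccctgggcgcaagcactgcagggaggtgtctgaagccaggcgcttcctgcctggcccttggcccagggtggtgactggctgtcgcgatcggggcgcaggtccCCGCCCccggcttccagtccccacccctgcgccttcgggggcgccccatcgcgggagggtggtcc
Btc: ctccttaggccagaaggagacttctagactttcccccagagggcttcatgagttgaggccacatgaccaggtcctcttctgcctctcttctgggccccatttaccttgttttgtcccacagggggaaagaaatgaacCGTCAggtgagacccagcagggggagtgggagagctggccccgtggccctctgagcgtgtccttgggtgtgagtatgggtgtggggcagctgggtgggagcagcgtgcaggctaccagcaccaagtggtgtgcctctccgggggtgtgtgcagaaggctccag
The Areg window held the full CRE 61 bases before the start, a further core and 2 Sp1 sites. The Tgfa window held 2 Sp1 sites and the Btc window 1 CRE core. Epgn, whose transcripts were almost absent, also held 1 CRE core, and Egfr held 1 Sp1 site. The AP-1 and CArG letters were not in any of the 5 windows, which says nothing of elements elsewhere.

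Among the ligands, Hbegf, Ereg, Areg, Btc and Tgfa all rose with Nras, whereas the receptors Egfr and Erbb3 did not pass the test. Levels are sums of UMIs over the cells of a bin, in CPM, with exact Poisson 95% intervals that cover counting error only. Since 3′ UMIs are captured with an efficiency that differs from gene to gene, levels are compared across cells and not between genes. For the tests, UMIs were summed by mouse and bin and fitted over all genes with edgeR's quasi-likelihood test with the mouse as a block. Hashtags 1 and 2 gave a sum in each of the 4 bins, and hashtag 3 gave only a baseline sum of 21 cells, which adds nothing to a difference between bins. The differences therefore rest on 2 mice, whose construct may or may not be the same.

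Areg encodes amphiregulin, a heparin-binding ligand of EGFR. The mouse of hashtag 1 had 3.36 CPM at baseline, 16.5 in the low, 43.5 in the intermediate and 31.7 in the high bin. The mouse of hashtag 2 had 4.32, 8.43, 15.5 and 23.5 CPM in the same order, and hashtag 3 had 2.18 CPM at baseline. Both mice had more Areg in each Nras bin than any mouse had at baseline, and in hashtag 1 the intermediate bin was above the high one. Over all deep hepatocytes the level went from 4.95 CPM (4.42 to 5.53) at baseline to 27.1 CPM (23.5 to 31.2) in the high cells.

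Ereg encodes epiregulin, which binds both EGFR and ERBB4. Levels in the mouse of hashtag 1 were 2.06, 3.66, 18.8 and 65.2 CPM from baseline to high, while the mouse of hashtag 2 had 3.61, 12.5, 21.4 and 39.9 CPM. Hashtag 3 had 0 UMIs of Ereg among 457923 at baseline, with an upper limit of 8.06 CPM. The increase ran through every bin in both mice, and the relative difference between the mice was widest in the low bin. Pooled over cells, Ereg was at 3.28 CPM (2.85 to 3.76) at baseline and 41.2 CPM (36.7 to 46.1) in the high bin.

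Hbegf encodes heparin-binding EGF-like growth factor, a ligand of EGFR and ERBB4, and lies on chromosome 18. Hashtag 1 gave 34.4, 104, 191 and 291 CPM from baseline to high. Hashtag 2 gave 52.5, 134, 191 and 272 CPM. The baseline sum of hashtag 3 was at 54.6 CPM, close to that of hashtag 2. All Nras bins of both mice lay above all 3 baseline sums.

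Btc encodes betacellulin, which shares the receptors of Hbegf. Its levels were nearly equal in both mice in every bin, with 15.9, 39.0, 68.1 and 97.7 CPM for hashtag 1 against 17.8, 42.9, 67.6 and 94.98 CPM for hashtag 2. Hashtag 3 had 17.5 CPM at baseline. Cells without a hashtag call, which the test did not use, gave 20.1, 42.2, 64.5 and 95.2 CPM.

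Tgfa encodes transforming growth factor-α, a ligand of EGFR that hepatocytes are known to make during regeneration. Hashtag 1 gave 41.5, 50.6, 72.0 and 93.4 CPM from baseline to high, while hashtag 2 gave 44.9, 73.4, 89.4 and 110 CPM. The baseline sum of hashtag 3 was at 30.6 CPM. The order of the bins was the same in both mice, over a narrower range than for the other ligands that rose.

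Epgn, the gene of epigen, was nearly absent, with 2 UMIs in the baseline hepatocytes and 0 in the other bins. The upper limit was 0.503 CPM in the high cells.

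Egfr, the receptor that all of these ligands bind, was measured for hashtag 1 at 48.0, 51.9, 61.0 and 59.2 CPM from baseline to high, and for hashtag 2 at 40.0, 46.4, 40.5 and 47.4 CPM. Hashtag 3 was lower, at 24.02 CPM, with an interval of 11.99 to 42.98 CPM. In each bin hashtag 1 was above hashtag 2, and neither mouse had a steady increase through the bins. Erbb3 in turn had 17.9, 22.6, 23.4 and 37.7 CPM for hashtag 1, and for hashtag 2 it had 24.01, 21.6, 23.0 and 24.2 CPM, and its highest value was in the high bin of hashtag 1 alone.

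**Figure D1:**
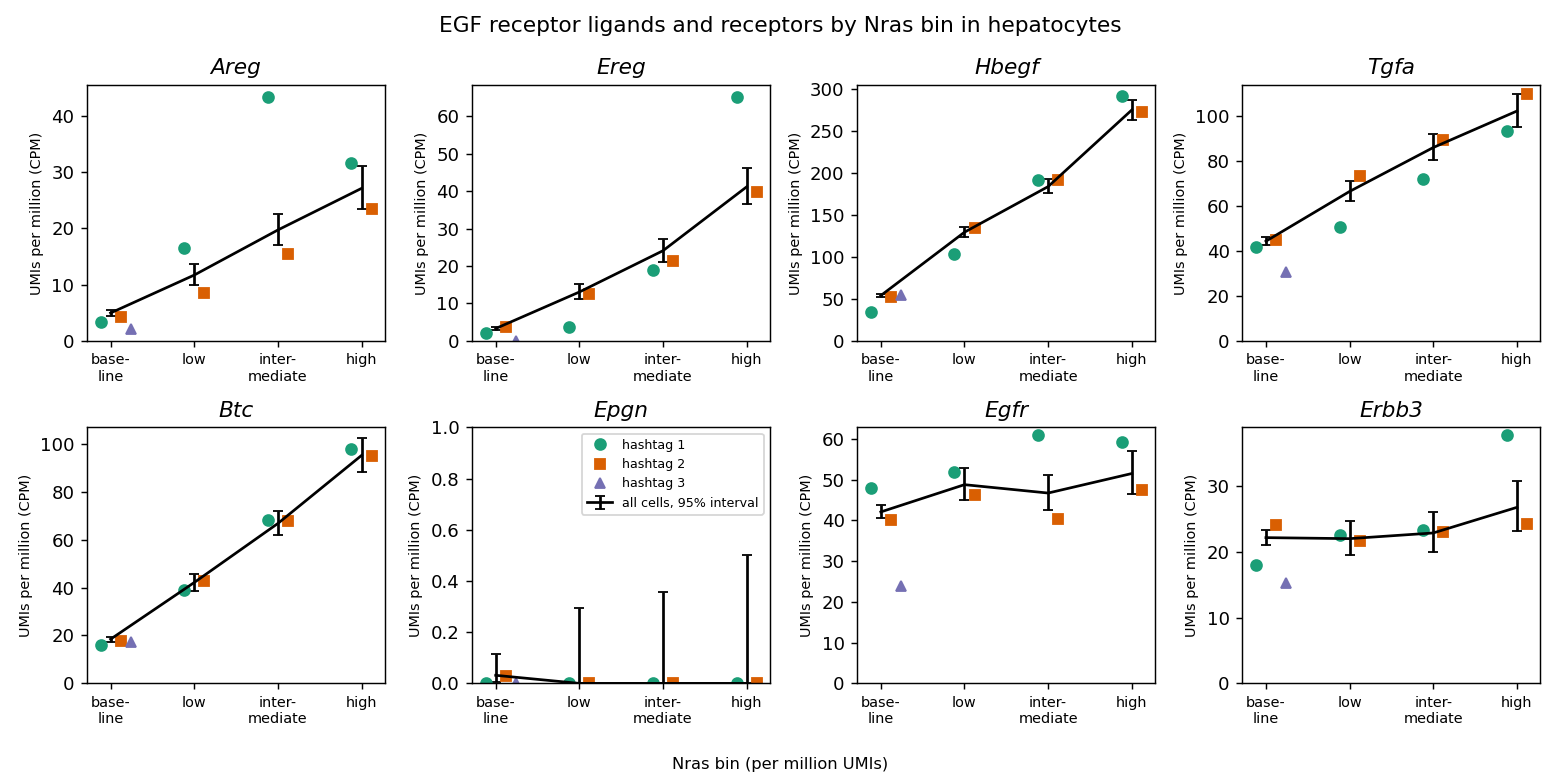
Level of each gene (vertical axis, CPM) in deep hepatocytes of the 4 Nras bins (horizontal axis). Lines with 95% Poisson intervals pool all cells, and symbols give the mice with a sum of at least 5 cells. Areg, Ereg, Hbegf, Tgfa and Btc climbed from baseline to high, Egfr and Erbb3 stayed near 42.1 to 51.5 and 22.0 to 26.7 CPM, and Epgn was near 0.

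High cells differed from baseline cells in 2518 of 10628 genes at an adjusted p under 0.05 (Benjamini-Hochberg over all genes), a share of 23.7%, and 11.9% of the genes were called higher. Of the 7 members tested, 5 were called, and all 5 were higher. Ereg rose by a log2 fold change of 3.95 ± 0.370 (SE, edgeR, adjusted p = 3.53e-05) and Hbegf by 2.69 ± 0.182 (adjusted p = 5.01e-06). The change was 2.61 ± 0.343 for Areg (adjusted p = 0.000328), 2.50 ± 0.127 for Btc (adjusted p = 1.25e-06) and 1.25 ± 0.124 for Tgfa (adjusted p = 5.2e-05). Each was in the same direction in 2 of 2 mice, as assigned by the hashtag calls. These calls depended on the rule. The baseline sums held 153 cells of hashtag 1 and 827 of hashtag 2. A fixed hashtag rule, with at least 10 hashtag counts and 80% of them from 1 hashtag, gave 387 and 280 cells. Under that rule 5 of 7 members were again called higher, with 2418 of 9536 genes called, 1158 of them higher. Erbb3 differed by 0.39 with an interval of −0.11 to 0.90 (adjusted p = 0.253), and Egfr by 0.28 with an interval of −0.02 to 0.58 (adjusted p = 0.178), so that the intervals leave room for a rise of Egfr by up to 0.58. The median over all genes was −0.02.

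Ligand levels were already higher in the low bin. Low cells differed from baseline in 5.14% of all genes, and in 4 of the 7 members, all higher: Hbegf by 1.47 ± 0.178, Ereg by 1.65 ± 0.413, Btc by 1.30 ± 0.130 and Tgfa by 0.58 ± 0.124 on the log2 scale. Areg was higher by 1.35 ± 0.367 with an adjusted p of 0.0665. Intermediate cells differed from low cells in 1.13% of the genes and in 1 member, Btc, which was higher by 0.70 ± 0.130 (edgeR, adjusted p = 0.0372). Between high and intermediate cells 0.00941% of the genes were called, which was 1 gene, and 0 members. By edgeR, 4 of the members had an unadjusted p under 0.05 there, as had 562 of 10628 genes. DESeq2 called 0 members and 22 genes, with 3 members and 200 genes under that unadjusted limit. How many members passed in these smaller steps depended on the setting. For low against baseline it was 2 without the mouse as a block, where 254 of 10628 genes were called. It was 2 with DESeq2 (298 of 10628 genes) and 5 without a filter on low counts (1033 of 17690). With bins of mVenus it was 0 (10 of 10525 genes), as with quartiles of Nras (0 of 9779). The call of Btc between intermediate and low cells was lost without the block, with DESeq2 and with a fixed hashtag rule. Between high and intermediate cells 2 members were called without a filter, among 184 of 17690 genes. With quartiles of Nras 5 members were called there, among 649 of 9779 genes. The settings with mVenus bins and quartiles group other cells under the same bin names, so their steps are not the same comparisons. All quartiles but the top one lay at or under 313.4 CPM of Nras, close to the upper limit of the main baseline bin.

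**Figure D2:**
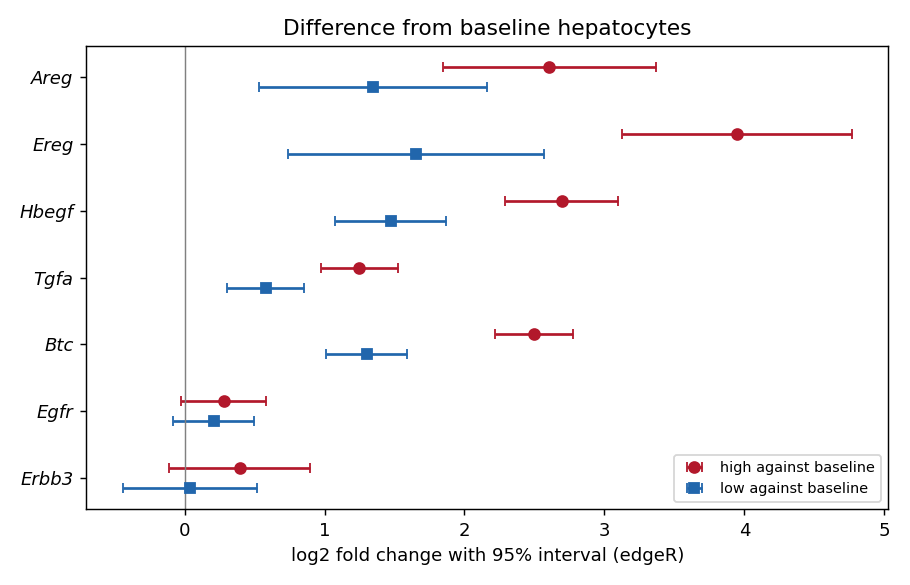
Log2 fold change against baseline hepatocytes (horizontal axis, with 95% intervals from edgeR over 2 mice) of the 7 members tested. The 5 ligands lie between 1.25 and 3.95 for the high bin, and the intervals of Egfr and Erbb3 include 0.

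The finer course of each gene was read from 20 equal bins of the deep hepatocytes ordered by Nras, of which the first 3 held cells without an Nras UMI. From the first to the last bin, Hbegf went from 37.7 to 298 CPM, Tgfa from 36.0 to 107, Btc from 10.0 to 98.7, Ereg from 1.33 to 47.0 and Areg from 1.00 to 30.6. Egfr went from 36.0 to 52.7 CPM and Erbb3 from 21.3 to 27.8. Much of the climb of Hbegf lay in the upper 5 bins, with 80.3 CPM in bin 15 at 257 CPM of Nras and 118, 136, 178, 179 and 298 CPM after it. Ereg and Areg wavered at a few CPM through the lower bins, where each bin held few UMIs of these genes.

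**Figure D3:**
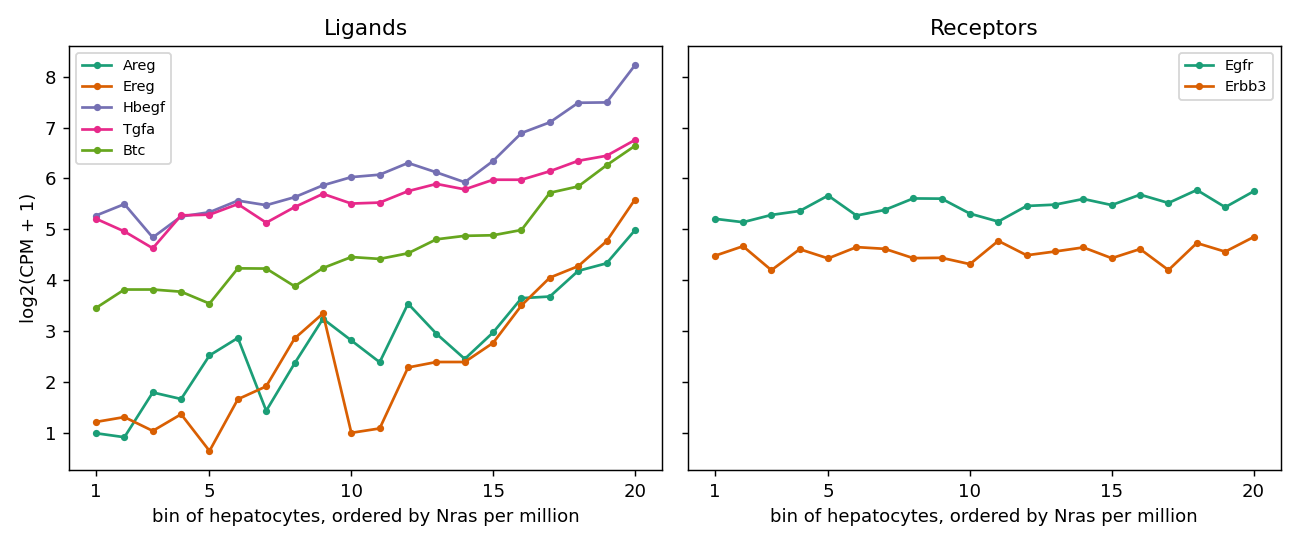
Level on the log2(CPM + 1) scale (vertical axis) in 20 bins of 115 or 116 deep hepatocytes ordered by Nras (horizontal axis), for ligands and receptors. Each ligand line climbs along the bins, with some wavering, and is highest in the last one, and the receptor lines change less.

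Genes with the course most like that of each member were taken by Pearson correlation of log2(CPM + 1) over the same 20 bins, among 7549 genes of at least 10 CPM in a bin. Since the bins share cells, libraries and the Nras order, the correlations are a description. Hbegf was closest to the keratin genes Krt8 (0.991) and Krt18 (0.989), which encode the filaments of simple epithelia, and to S100a11 (0.987). Btc was closest to Anxa4 (0.986), Tomm20 (0.984) and Wdr1 (0.982), and Tgfa to Esyt2 (0.975), Slc25a37 (0.972) and Fhl2 (0.971). For Ereg, Kcnn4 (0.932) and Itgav (0.930) were among the closest genes, and for Areg they were Krt23 (0.939), Elovl7 (0.939) and Mtdh (0.930). Egfr reached only 0.749 with Fgd3, 0.736 with Tmem176a and 0.734 with Frk, and Erbb3 0.765 with Mdm4, 0.732 with Arhgap12 and 0.693 with Nus1.

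The ligands were also found in more cells. To compare cells of unequal depth, each was thinned to 10000 UMIs, and exact binomial intervals are given. An Hbegf UMI was present in 28.0% of baseline cells (25.9 to 30.2), 53.2% of low, 69.3% of intermediate and 75.9% of high cells (67.9 to 82.8). Before thinning the shares at baseline and in the high bin were 51.1% and 97.8%, at median depths of 36162 and 53562 UMIs. For Tgfa the thinned share was 30.2% at baseline and 56.2% in the high bin (unthinned, 62.4% and 91.2%). For Btc it was 14.2% and 42.3% (37.0% and 84.7%). Ereg was at 1.86% and 24.8% (5.63% and 51.1%) and Areg at 3.60% and 16.1% (8.13% and 35.8%). In the intermediate bin the thinned shares were 57.0% for Tgfa, 44.7% for Btc, 16.8% for Ereg and 13.4% for Areg. Those of Tgfa and Btc were thus no higher in the high bin than in the intermediate one. Egfr was present in 30.2% of thinned baseline cells and 39.4% of high cells (31.2 to 48.1), and Erbb3 in 16.5% and 23.4% (16.6 to 31.3). In conventional dendritic-like cells, taken here as cells that should lack most of these genes, the thinned share was 3.42% for Hbegf and 0.427% for Btc at a median depth of 12086 UMIs, so the shares in hepatocytes lay above that background. Only Ereg at baseline, at 1.86% (1.27 to 2.61), came near the background limit of 1.56% for 0 of 234 dendritic-like cells.

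More ligand genes were detected per cell as Nras increased. In thinned cells, 46.2% of baseline hepatocytes had a UMI of none of Areg, Ereg, Hbegf, Tgfa and Btc, against 22.5% of low, 9.50% of intermediate and 5.84% of high cells. At least 3 of the 5 genes were seen in 65 of 1723 baseline and 54 of 137 high cells. In the high bin Ereg and Hbegf were found together in 30 cells, where the product of their shares gives 25.8, Areg and Ereg in 6 against 5.46, and Hbegf and Tgfa in 58 against 58.5. In the baseline bin the same pairs were found in 18 cells against 8.95, 4 against 1.15 and 193 against 145. All 10 ligand pairs were above the product at baseline, and all but Hbegf with Tgfa were above it in the high bin.

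**Figure D4:**
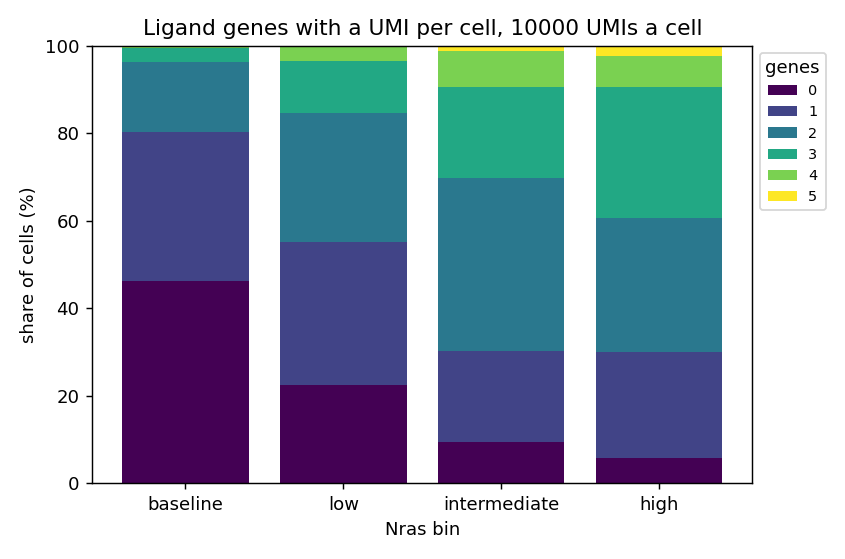
Share of cells (vertical axis, %) with a UMI of 0 to 5 of the genes Areg, Ereg, Hbegf, Tgfa and Btc in each Nras bin (horizontal axis), after thinning each cell to 10000 UMIs. Cells with none went from 46.2% at baseline to 5.84% in the high bin.

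A few cells carried much of the Areg signal. In the high bin, 199 Areg UMIs came from 49 of 137 cells, 18.1% of them from a single cell and 57.8% from the 10 highest, and without that cell the level was 22.5 CPM. Ereg was more even, with 302 UMIs from 70 cells and 5.96% from the top cell. Hbegf UMIs were spread over 134 of the 137 high cells, with 3.33% from the top cell.

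Hepatocyte gene content moved with Nras and with the ligands. The median share of the 5 genes of the hepatocyte rule was 7.51% at baseline, 5.68% in the low, 3.74% in the intermediate and 3.45% in the high cells. High cells were therefore split into 3 groups of about equal size by that share at nearly equal Nras (6911, 6087 and 6677 CPM). Hbegf was at 326, 328 and 184 CPM from the lowest to the highest hepatocyte share, Ereg at 53.1, 40.0 and 31.5 CPM, Tgfa at 98.7, 124 and 87.1 CPM, and Btc at 129, 74.2 and 81.9 CPM. In the baseline cells with the lowest shares, Hbegf was at 86.1, Ereg at 6.18, Tgfa at 62.2 and Btc at 30.6 CPM, below the levels of all 3 groups of high cells.

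Areg levels differed widely between these groups. In the same 3 groups of high cells it was at 54.3 CPM (45.4 to 64.4), 24.3 CPM and 5.19 CPM (2.84 to 8.70), values that rest on the few Areg-rich cells described above, and the baseline cells with the lowest shares had 8.38 CPM (7.07 to 9.86). With hepatocytes defined by a share of at least 5%, Areg was at 3.67 CPM at baseline and 3.99 CPM in the high cells and did not pass the filter on low counts, whereas Ereg, Hbegf, Btc and Tgfa were still called. A higher Areg level was thus seen among high cells with few hepatocyte transcripts. Among those with many, the answer depended on the cut. The baseline cells with the highest shares had 1.55 CPM (1.08 to 2.14) and the middle group 5.84 CPM (4.89 to 6.92). These baseline groups began at shares of 10.99% and 4.97%, while the highest group of high cells began at 4.69%, so the shares were not matched. With the 5% limit the low cells were at 6.37 CPM (4.63 to 8.55) and the intermediate cells at 6.25 CPM (3.96 to 9.38). Median depth also differed between the bins, from 36162 to 60465 UMIs, and the part of depth and of hepatocyte gene content in the ligand levels was not tested beyond these splits.

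Markers of other cells differed between the bins, list by list. The 10 endothelial markers summed to 36.4 CPM at baseline and 15.7 CPM in the high cells, where Stab2 was at 0. The 10 macrophage markers summed to 5.59, 4.86, 1.65 and 15.9 CPM from baseline to high, with all 10 detected in the high bin and C1qb leading at 3.68 CPM. The 8 stellate markers summed to 126 CPM at baseline and 580 CPM in the high cells, of which Ecm1 made up 559 CPM while Des and Colec11 were at 0 there, and the 6 biliary markers to 93.5 and 164 CPM, of which Sox9 made up 152 CPM while Krt19 and Cftr were at 0. The B-cell markers summed to at most 2.43 CPM, the T or NK markers to 5.18, the neutrophil markers to 4.77, the monocyte markers to 2.11 and the plasmacytoid dendritic markers to 0.710, whereas the mature dendritic list stayed between 41.9 and 60.0 CPM, mostly from Socs2, and the conventional dendritic list between 5.17 and 15.5 CPM. Without the 222 deep hepatocytes that held at least 3 markers of another cell type, 5 of 7 members were again called higher between high and baseline cells. In that setting 2760 of 9996 genes were called, 1361 of them higher. The part of these marker levels in the ligand levels was otherwise not tested.

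Other genes of the pathway are given by list, from receptor partners to ERK targets. Over all genes, 23.7% were called between high and baseline cells, and 11.9% were called higher. The shedding, feedback and adaptor lists had 1 call each, which is not read as a result about the lists. Among other ERBB ligands and receptors, 2 of 7 could be tested and neither passed: the neuregulin genes Nrg4 (0.52 ± 0.346) and Nrg1 (0.30 ± 0.220), with unadjusted p of 0.165 and 0.201 by edgeR. Of 6 ligand shedding genes tested, Rhbdf2, whose product guides ADAM17 to the cell surface, was higher by 0.75 ± 0.191, and Adam17 itself was at −0.17 ± 0.296. Timp3, an inhibitor of ADAM17 from the same list, was at −6.27 ± 2.17 and did not pass (edgeR, adjusted p = 0.0655). Its SE was far above those of the other shedding genes tested (0.159 to 0.296), so the size of that difference is poorly determined. Of 11 genes of receptor feedback and turnover, Socs5, a suppressor of EGFR signalling, was higher by 1.52 ± 0.243. Of 10 adaptor genes, Pik3r1, the regulatory subunit of PI3-kinase, fell by 1.06 ± 0.231 on the log2 scale.

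Of the ERK feedback and output genes, 7 of 14 were higher and 0 lower, where 11.9% of all genes were called higher. Fosl1, an AP-1 subunit, rose by 3.50 ± 0.303, the ETS factor gene Etv4 by 2.23 ± 0.220 and the immediate early gene Ier3 by 1.87 ± 0.145. The list's median log2 fold change was 0.74, against 0.05 for shedding, 0.20 for receptor feedback and turnover, −0.12 for the adaptors, 0.41 for the 2 other ERBB genes and −0.02 for all genes.

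At the chromosome 5 cluster the response was uneven. The gaps were 39.4 kb between Epgn and Ereg, 46.0 kb between Ereg and Areg and 208.8 kb between Areg and Btc. Epgn, at the edge of the cluster next to Ereg, was almost absent. Mthfd2l, its neighbour on the other side, was at 28.7 CPM at baseline and 31.8 CPM in the high cells, and Parm1, beyond Btc, at 4.97 and 5.73 CPM. Further away lie the chemokine genes, of which Cxcl3 went from 9.29 to 172 CPM, Cxcl5 from 9.07 to 53.6 CPM and Cxcl2 from 26.9 to 88.2 CPM, with Cxcl1 at 200 and 221 CPM. Afm was lower in the high cells, at 141 and 47.4 CPM, as was 5830473C10Rik at 3.25 and 0.136 CPM, and Rassf6 was at 11.8 and 17.6 CPM. These neighbours were chosen by position within 500 kb and are given without a test.

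In endothelial-like and dendritic-like cells, most members were at or near 0. Cells were called endothelial-like, macrophage-like and so on from fixed marker lists, after barcodes that met the hepatocyte rule had been set aside. Since cells had been sorted for viability and mVenus, the cell numbers do not give liver composition. The groups also came from different mice. Endothelial-like cells with a hashtag call were 464 of hashtag 3, 36 of hashtag 2 and 22 of hashtag 1. Hepatocyte UMIs were 10550150, 54045271 and 1854792 for hashtags 1, 2 and 3. A pooled difference between hepatocytes and endothelial-like cells is therefore largely also one between mice. The ligands Areg, Ereg and Btc were at 8.02, 8.30 and 28.0 CPM in the 8510 hepatocytes, which here and in the comparisons of cell groups below pool all Nras bins. In the 6940 of them at baseline Nras these ligands were at 4.33, 2.71 and 15.2 CPM. In 553 endothelial-like cells there were 0, 1 and 2 UMIs of these genes among 2525830, and for Areg the upper limit of the exact interval was 1.46 CPM. In 398 conventional dendritic-like cells there were 1, 2 and 3 UMIs among 4298309. Smaller groups gave few UMIs, with Areg at 3 UMIs in 81 T or NK-like cells, 2 in 15 plasmacytoid dendritic-like cells and 2 in 10 cholangiocyte-like cells. In the 313 barcodes under the hepatocyte rule that met no marker gate, Areg was at 191 CPM (178 to 204) from 871 UMIs and Ereg at 22.1 CPM (18.0 to 26.9), both above the hepatocyte level. Of these Areg UMIs, 704 came from 10 deep barcodes with at least 3000 CPM of Nras, and 637 from 3 of them. The value is therefore not a level of the 313 barcodes at large.

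Egfr and Erbb3 followed the same pattern. Egfr was at 37.8 CPM in hepatocytes (36.7 to 39.0), 2.38 CPM in endothelial-like cells (0.872 to 5.17) and 0.465 CPM in conventional dendritic-like cells. Erbb3 was at 19.0, 2.38 and 0.931 CPM in the same groups. For both receptors the hepatocyte value lay beyond the intervals of these cells, while endothelial-like and dendritic-like values overlapped. Egfr was at 48.3 and 40.9 CPM in hepatocytes of hashtags 1 and 2 and at 13.5 CPM in those of hashtag 3, which were mostly shallow. Most called endothelial-like cells were of hashtag 3, so the pooled hepatocyte value of 37.8 CPM comes largely from other mice than theirs.

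Among the gated cell types, Hbegf and Tgfa had the most UMIs outside hepatocytes. Hbegf was at 80.4 CPM in hepatocytes (78.8 to 82.1), 87.0 CPM in 35 macrophage-like cells (53.9 to 133), 51.9 CPM in endothelial-like cells (43.4 to 61.5), 24.9 CPM in T or NK-like cells and 3.72 CPM in conventional dendritic-like cells. With all Nras bins pooled, the macrophage-like and hepatocyte levels did not differ beyond their intervals. Hepatocytes at baseline Nras were at 44.1 CPM (42.7 to 45.6), below the macrophage-like interval and within the endothelial-like one. By mouse, Hbegf had 94.3, 95.4 and 34.5 CPM in hepatocytes of hashtags 1, 2 and 3, at 28.9, 99.5 and 50.9 CPM in endothelial-like cells and at 72.0, 60.1 and 192 CPM in macrophage-like cells, so that the groups overlapped between mice. Tgfa was at 48.8 CPM in hepatocytes and 20.2 CPM in endothelial-like cells (15.03 to 26.5), most of which came from hashtag 3, and had 0 UMIs in macrophage-like cells. In 10 cholangiocyte-like barcodes Hbegf reached 599 CPM from 59 UMIs, of which 36 came from 1 barcode with 1185 Nras UMIs and 28 mVenus UMIs, and without that barcode the level was 357 CPM.

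**Figure D5:**
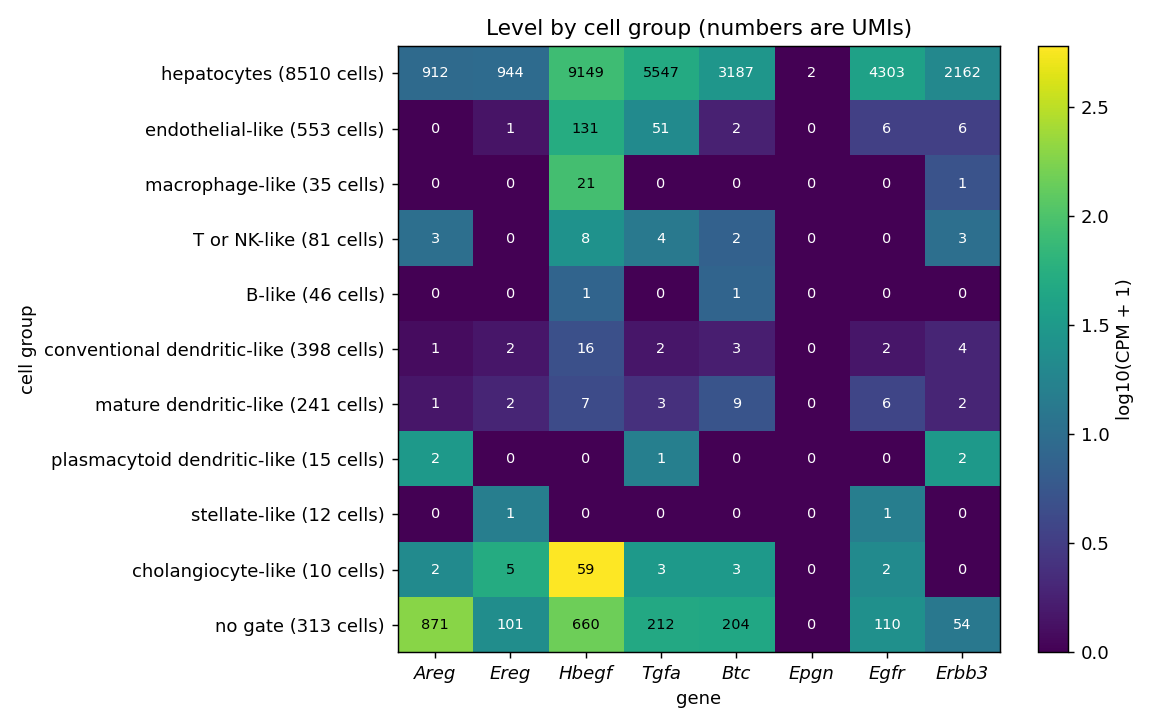
Level of each member (color, log10(CPM + 1)) in hepatocytes of all Nras bins and in groups of at least 10 cells gated on markers, with UMIs written in each field. Hepatocytes show every member but Epgn, endothelial-like cells show Hbegf and Tgfa, and dendritic-like and B-like cells are near 0.

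Summed by mouse and cell group and fitted with edgeR, hepatocytes differed from the mean of the other groups in 1965 of 5350 genes, or 36.7%. With all sums of at least 5 cells, only Hbegf of the 8 members had enough counts to be tested, and it was called higher (log2 fold change 4.56 ± 0.797, adjusted p = 0.000183). That value averages in groups where Hbegf was at 0 and gives neither the difference from endothelial-like nor that from macrophage-like cells. With sums under 100000 UMIs left out, a limit chosen after the data were seen, 37.7% of 12050 genes were called, and so were 7 of 7 members tested, with Hbegf at 2.57 ± 0.341. Of these, Areg, Ereg, Btc, Egfr and Erbb3 had so few UMIs in the other groups that they passed the filter on low counts through the hepatocyte sums, so nothing is read from that count. Hbegf itself was not called when hepatocytes were defined by a share of at least 5% (2.82, adjusted p = 0.147) or when the marker gates came before the hepatocyte rule (2.40, adjusted p = 0.0834).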

How the data were processed

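Single-cell 3′ libraries of sorted liver cells and their hashtags were measured in 1 pool of 3 mice. The authors deposited UMI counts per gene and barcode and hashtag counts per barcode. The reads had been aligned to mm10 with Cell Ranger, version 2.1.1 in the submitters' processing notes and 3.0.2 in the header of the gene table. How these counts were filtered before deposit is not given in the sources used here.

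Barcodes were kept with at least 1000 UMIs, 500 genes and under 20% mitochondrial UMIs. Hashtags were called with HTODemux (Seurat 5.3.0, quantile 0.99), which gave 5482 single calls, 271 doublets and 7386 negatives. Hashtag doublets were left out of sums by mouse and no expression doublet caller was run. Counts were summed by mouse and bin, with at least 5 cells a sum, and tested with edgeR 4.0.16 (quasi-likelihood, mouse as block, filterByExpr, TMM, Benjamini-Hochberg at 0.05, R 4.3.3). DESeq2 1.42.0, other filters, size factors, bins, hashtag rules and hepatocyte limits were alternatives. The fit was tested on simulated counts, where it recovered 87.6% of genes changed 4-fold and 27.1% of those changed 2-fold between the high and baseline bins, with 6 false calls among 10420 genes. The cell group fit was first limited to sums of at least 100000 UMIs because an early version failed that simulated test. The failure came from an error in its contrast, which was corrected, and the limit is now only an alternative. The tests treat 2 mice as replicates, and cells were never used as replicates.

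All 8 members are named. Of each pathway list, up to 3 genes in each direction with the largest log2 fold change at an adjusted p under 0.05 between high and baseline are named, together with Adam17, Timp3, Nrg1 and Nrg4, which were added after their values were seen, and the 3 genes with the most similar course for each member. One gene that this rule names is not reported here. The members and lists were chosen with earlier results of these data known.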

Additional observations from a re-analysis of the deposited data

Results flagged for a closer look

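The hepatocyte rule left out barcodes with much Nras and few hepatocyte transcripts, and these held ligand transcripts that no comparison above used. Among barcodes of at least 10000 UMIs under the rule, with at least 3000 CPM of Nras and no marker gate, there were 10, with a pooled mVenus level of 756 CPM and a median hepatocyte gene share of 0.281%. In 90 barcodes under the rule with fewer than 300 CPM of Nras, mVenus was at 6.49 CPM. Areg stood at 1358 CPM (1259 to 1462) in the 10 barcodes and at 11.2 CPM (6.75 to 17.5) in the 90. Hbegf was at 395 CPM against 87.9 CPM, Btc at 114 against 8.85 CPM, Ereg at 98.4 against 0.590 CPM, Tgfa at 92.6 against 31.3 CPM and Egfr at 54.0 against 12.98 CPM. For each of these 6 genes the Poisson intervals did not overlap, whereas those of Erbb3 (15.4 against 9.44 CPM) did. No test was run on these barcodes.

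These values rest on very few barcodes. Ranked for each gene by itself, the 3 highest of the 10 held 90.5% of the Areg UMIs, 81.5% of Hbegf and 68.6% of Ereg. For Btc the share was 67.8%, for Egfr 64.3% and for Tgfa 43.8%. The 3 barcodes were not the same for every gene: the barcode with the most Hbegf, at 90 UMIs, held 4 Areg UMIs. Of 704 Areg UMIs, 637 came from 3 barcodes with 325, 177 and 135 UMIs, and only 1 of these 3 had a hashtag call. Vim, a mesenchymal filament gene, was at 4598 CPM and Tm4sf1 at 1495 CPM in the same 10 barcodes, against 821 and 114 CPM in the 90. The 3 highest of the 10 for each gene held 53.6% of the Vim and 73.0% of the Tm4sf1 UMIs. Median depth was 48627 UMIs in the 10 barcodes and 13675.5 UMIs in the 90. Adding such barcodes to the Nras bins moved the pooled Areg level of the high bin from 27.1 to 115 CPM and its log2 fold change from 2.61 to 3.56, with 5 of 7 members called as before. What these barcodes are was not tested.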

How the results depend on the processing

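Alternatives were run one at a time, and 4 of them (cells of at least 30000 UMIs, barcodes under the hepatocyte rule added, sums of at least 100000 UMIs, and gates before the rule) were chosen after the data were seen. Between high and baseline cells 2518 genes were called, 2057 without the replicate block, 1386 with DESeq2 and 982 with hepatocyte genes of at least 5%, and 2555 without hashtag 3. The 5 members stayed called and higher in all of these, except that Areg was not tested at 5%, where 4 of 6 were called. Without hashtag 1 or 2 no residual degrees of freedom were left, so only values could be given: Ereg ran from 3.44 to 5.01, Hbegf from 2.35 to 3.15, Areg from 2.41 to 3.28 and Erbb3 from −0.014 to 1.14 on the log2 scale. At 5%, Egfr was −0.020 and Erbb3 −0.66, neither called. Against other cell groups, 1965 genes and 1 member were called, 4566 and 7 without a filter on low counts, 4547 and 7 with sums of at least 100000 UMIs, and 997 to 2432 and 1 to 2 with a hashtag left out. Low against baseline gave 546 genes, 254 without the block, 298 with DESeq2, 1033 without a filter, 60 at 5%, 10 with mVenus bins and 0 with quartiles of Nras. The mVenus bins and quartiles group other cells under these names, so their counts are not for the same step. Intermediate against low gave 120 genes, 0 without the block and 566 without a filter, and high against intermediate gave 1, 22 with DESeq2 and 184 without a filter. The causes were not tested. Depth limits Areg, Ereg and Epgn, which had few UMIs per cell, and 2 mice limit every test.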
